A study of Mus musculus with 12 samples.

Results

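The vascular endothelial growth factor (VEGF) and angiopoietin systems are represented here by 10 genes: the ligands Vegfa, Vegfc, Angpt1 and Angpt2, the receptors Kdr, Flt1, Flt4, Tek and Tie1, and the co-receptor Nrp1. They were taken by gene symbol from the array annotation, which assigns them 22 of the 45037 probe sets analysed. Of these probe sets, 21 passed the filter on low values, so that all 10 genes were among the 10996 genes tested. The arrays measured lung tissue RNA of mice aged 8 to 12 weeks, 3 replicate arrays in each of 4 groups. Each array is taken here as a separate mouse. The groups were GADD45-/- mice given ventilator-induced lung injury (VILI), GADD45-/- mice under SB, VILI wild types, and wild types under SB. The series title names the gene as GADD45a, and the GADD45-/- mice are called knockout here. For VILI the lungs were ventilated for 4 hours at 65 breaths a minute with tidal volumes of 30 ml/kg. SB is an unexplained abbreviation in the labels, and the design text names the wild type group without VILI as control. The sources used here do not give the strain, the sex or how the knockout was made.

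VEGF-A is made in the lung largely by alveolar epithelium and acts on the endothelium through the tyrosine kinase receptor VEGFR2, encoded by Kdr, which loosens endothelial junctions and raises permeability. VEGFR1, encoded by Flt1, binds VEGF-A tightly and limits what reaches VEGFR2, while VEGF-C acts mainly on VEGFR3, encoded by Flt4. Angiopoietin 1 activates the endothelial receptor Tie2, encoded by Tek, and holds vessels closed, and angiopoietin 2, which endothelial cells store and release, can oppose it.

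Values are log2 expression values as deposited, and a change is a difference of group means on that scale, VILI minus SB or knockout minus wild type, with its standard error (SE). Tests are limma's moderated tests with Benjamini-Hochberg adjustment over all 10996 genes, and a change is called when the adjusted p is under 0.05. Probe sets differ in affinity, so levels are compared between groups and not between genes. The tissue carried its defining markers on every array: Sftpc of type II cells lay between 15.12 and 15.55, Ager of type I cells between 14.12 and 14.87, Scgb1a1 of club cells between 15.52 and 15.86, and the endothelial genes Pecam1 and Cdh5 between 11.89 and 12.53 and between 11.06 and 12.09. Gadd45a itself read 4.58 to 6.15 on the 6 knockout arrays and 8.62 to 10.33 on the 6 wild type arrays. Replicate 3 of knockout VILI and replicate 3 of knockout SB stood apart in B cell markers, whose mean was 9.92 and 9.78 there and 5.21 to 7.09 on the other 10 arrays, and the calls of the 10 genes and the counts of the gene lists are also given without them, those of the lists by a fit added after the data were seen.

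The main question was how VILI altered the expression of these genes. Averaged over genotypes, 7 of the 10 genes fell and 0 rose: the receptors Tek and Kdr, the co-receptor Nrp1, and the ligands Vegfc, Angpt1, Angpt2 and Vegfa. Their levels after VILI were 1.26- to 1.59-fold below those under SB. Over all genes 9.39% were called lower and 8.42% higher in this comparison. Flt1, Flt4 and Tie1 were not called, at -0.30 (adjusted p = 0.103), -0.23 (adjusted p = 0.359) and -0.23 (adjusted p = 0.318). All 10 changes lay below 0 in knockout lungs and all 10 in wild type lungs, and 41% of all genes lay below 0 in both genotypes. Without both arrays that stood apart, 3 of the knockout changes lay above 0, at 0.07 for Flt1, 0.18 for Flt4 and 0.11 for Tie1, and the mean of its probe sets put Flt1 above 0 in both genotypes. The median over the 10 genes was -0.46 averaged over genotypes, against -0.03 over all genes tested. The call of Angpt2 was lost in 9 of the 12 fits that leave out an array (highest adjusted p = 0.0887), and the other 6 calls held in each of those fits. Arrays centred on their medians gave the same 7 falls, with 36.6% of all called genes higher, against 47.3% as deposited. The same 7 genes were also called without both arrays that stood apart in B cell markers. In that fit 7.85% of all genes were called lower and 6.98% higher. In tissue RNA, fewer cells that express a gene and less of its RNA per cell cannot be told apart.

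**Figure D1:**
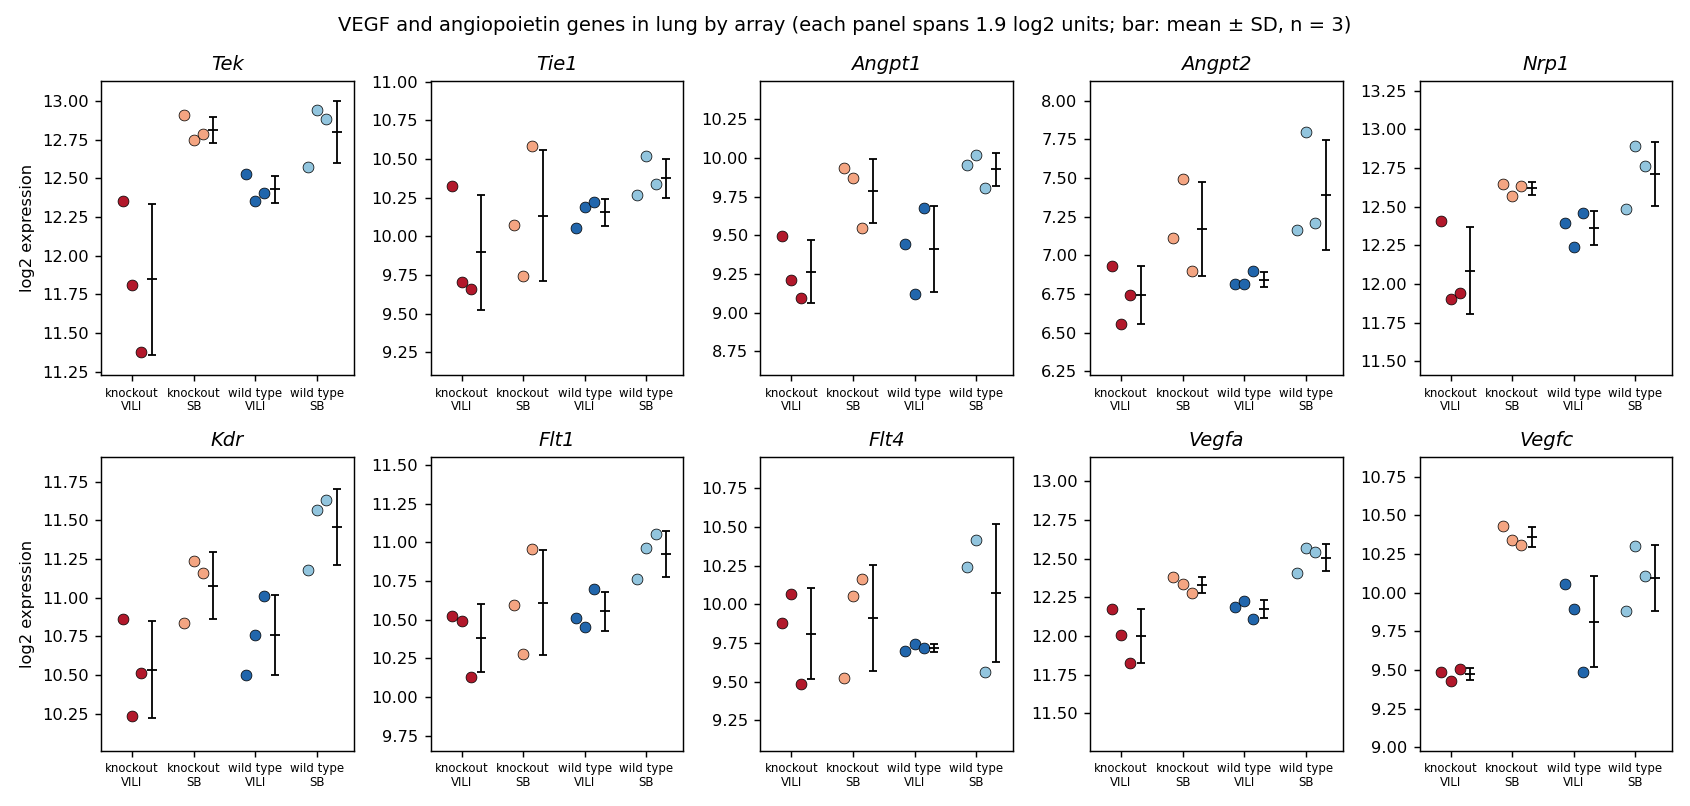
Log2 expression of the 10 genes on each of the 12 arrays, with a panel per gene and the groups knockout VILI, knockout SB, wild type VILI and wild type SB from left to right. Points are arrays, and the bars beside them are the mean ± SD (n = 3). The VILI points of Tek lie below the SB points of the same genotype, and the lowest Tek array is knockout VILI replicate 3 at 11.38.

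Tek, the receptor of the angiopoietins, fell after VILI in knockout lungs and in the average over genotypes. Tek read 12.35, 11.81 and 11.38 in knockout VILI lungs, against 12.91, 12.75 and 12.79 in knockout SB lungs. In wild type lungs Tek read 12.53, 12.36 and 12.41 after VILI, against 12.57, 12.95 and 12.88 under SB. In each genotype all 3 VILI arrays lay below all 3 SB arrays, and knockout VILI replicate 3 was lowest. Knockout VILI averaged 11.85 ± 0.49 and knockout SB 12.82 ± 0.08 (SD, n = 3 each), a change of -0.97 (SE 0.19, adjusted p = 0.0208) or 1.96-fold lower. In wild type the change was -0.37 (SE 0.19, adjusted p = 0.299) and did not pass. Averaged over genotypes it was -0.67 (SE 0.14, adjusted p = 0.00899). The call in knockout was lost without both arrays that stood apart in B cell markers (-0.75, adjusted p = 0.0751), without knockout VILI replicate 2 (-0.95, adjusted p = 0.0878), without knockout SB replicate 1 (-0.92, adjusted p = 0.0711) and with only the 6 knockout arrays in the fit (adjusted p = 0.13).

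Tie1, the orphan partner receptor that forms complexes with Tie2, was not called. Tie1 read 10.32, 9.71 and 9.66 in knockout VILI lungs, against 10.08, 9.74 and 10.58 in knockout SB lungs. Wild type mice had 10.06, 10.19 and 10.22 after VILI, against 10.27, 10.52 and 10.34 under SB. The knockout groups overlapped, since knockout VILI replicate 1 lay above knockout SB replicates 1 and 2, while in wild type all 3 VILI arrays lay below the SB arrays. The changes were -0.24 (SE 0.21, adjusted p = 0.551) in knockout and -0.22 (SE 0.21, adjusted p = 0.597) in wild type, and neither passed. Without both arrays that stood apart the knockout change was 0.11.

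The proximal promoters of the Tie receptor genes are shown because these endothelial receptors differed in whether their fall was called. They are RefSeq windows of assembly GRCm38.p6, from 250 bases before to 50 bases after the annotated start, Tek at chr4:94739039-94739338 on the forward strand and Tie1 at chr4:118489800-118490099 on the reverse strand, written along the gene. Capitals mark every match to 6 short motifs searched on both strands: CAGGAA (an ETS factor core), ACAAT (Sox), ACGTG (hypoxia response), GTAAACA (forkhead) and TGANTCA (AP-1), and to an NF-kB motif.
Tek: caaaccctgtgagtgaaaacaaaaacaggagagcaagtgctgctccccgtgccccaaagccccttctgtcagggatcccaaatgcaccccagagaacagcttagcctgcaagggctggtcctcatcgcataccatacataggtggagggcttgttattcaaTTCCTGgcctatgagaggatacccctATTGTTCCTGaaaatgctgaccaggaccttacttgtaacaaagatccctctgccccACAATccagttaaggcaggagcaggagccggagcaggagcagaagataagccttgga
Tie1: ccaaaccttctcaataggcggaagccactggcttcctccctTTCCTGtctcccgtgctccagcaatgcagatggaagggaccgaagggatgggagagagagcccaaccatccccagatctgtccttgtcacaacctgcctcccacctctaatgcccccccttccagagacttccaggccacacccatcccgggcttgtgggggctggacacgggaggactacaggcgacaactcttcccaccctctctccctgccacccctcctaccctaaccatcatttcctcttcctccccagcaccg
The Tek window held 2 ETS matches, both read on the opposite strand as TTCCTG, and 2 Sox matches, of which the reversed ATTGT shares a base with an ETS match. The Tie1 window held 1 ETS match. Of the 32851 windows of this length, 30.6% held CAGGAA, 31.0% ACAAT, 19.6% ACGTG, 7.81% TGANTCA, 3.65% GTAAACA and 1.63% the NF-kB motif. RefSeq windows were found for 8 of the 10 genes, 9 windows in all, and 4 of those windows held CAGGAA, those of Tek, Tie1 and Vegfc and 1 of 2 of Vegfa. A match describes the letters and does not show a bound factor.

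Both angiopoietins fell when the genotypes were averaged. Angpt1 read 9.49, 9.21 and 9.09 in knockout VILI lungs, against 9.93, 9.87 and 9.55 in knockout SB lungs. In wild type lungs Angpt1 read 9.44, 9.12 and 9.68 after VILI, against 9.96, 10.02 and 9.81 under SB. The VILI arrays lay below the SB arrays of their genotype without overlap. The change of Angpt1 was -0.52 (SE 0.16, adjusted p = 0.0965) in knockout, -0.51 (SE 0.16, adjusted p = 0.109) in wild type and -0.52 (SE 0.12, adjusted p = 0.0129) averaged, 1.43-fold lower. Angpt2 read 6.93, 6.56 and 6.75 in knockout VILI lungs, against 7.11, 7.50 and 6.90 in knockout SB lungs. In wild type lungs Angpt2 read 6.81, 6.82 and 6.90 after VILI, against 7.16, 7.80 and 7.21 under SB. The wild type groups did not overlap, and in knockout 1 VILI array, replicate 1, lay above SB replicate 3. The change of Angpt2 was -0.42 (SE 0.20, adjusted p = 0.247) in knockout, -0.55 (SE 0.20, adjusted p = 0.157) in wild type and -0.48 (SE 0.14, adjusted p = 0.0392) averaged. The 95% intervals of the averaged changes were -0.77 to -0.26 for Angpt1, the Tie2 agonist, and -0.80 to -0.17 for Angpt2, its context-dependent antagonist. A second Angpt1 probe set was at -0.66 (adjusted p = 0.19) averaged, with -1.21 in knockout and -0.11 in wild type, none past the threshold. With the mean of the Angpt1 probe sets in place of the brighter one, the averaged call was lost at adjusted p = 0.0530. The second Angpt2 probe set read 3.02 to 3.13 on all arrays, below the array medians, and was left out.

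Of the VEGF receptors, Kdr fell. Kdr read 10.86, 10.23 and 10.51 in knockout VILI lungs, against 10.83, 11.24 and 11.16 in knockout SB lungs. In wild type lungs Kdr read 10.50, 10.76 and 11.01 after VILI, against 11.18, 11.56 and 11.63 under SB. In wild type the 3 VILI arrays lay below the SB arrays, and in knockout VILI replicate 1 (10.86) lay just above SB replicate 1 (10.83). The changes were -0.54 (SE 0.19, adjusted p = 0.127) in knockout and -0.70 (SE 0.19, adjusted p = 0.0753) in wild type, each short of the threshold, and -0.62 (SE 0.13, adjusted p = 0.0114) averaged, 1.54-fold lower. Kdr, like Tek and Tie1, has a single probe set in the annotation.

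The co-receptor neuropilin 1, which presents VEGF-A to VEGFR2, fell in the average over genotypes. Nrp1 read 12.41, 11.91 and 11.94 in knockout VILI lungs, against 12.65, 12.57 and 12.64 in knockout SB lungs. Wild type mice had 12.39, 12.24 and 12.46 after VILI, against 12.49, 12.89 and 12.76 under SB. All VILI arrays lay below the SB arrays of their genotype. The changes were -0.53 (SE 0.14, adjusted p = 0.0549) in knockout, -0.35 (SE 0.14, adjusted p = 0.181) in wild type and -0.44 (SE 0.10, adjusted p = 0.0129) averaged. The next 2 Nrp1 probe sets fell as well when each probe set was tested on its own, at -0.57 (adjusted p = 0.0377) and -0.66 (adjusted p = 0.00452), and 1418084_at also passed in knockout at -0.82 (adjusted p = 0.0245). The fourth was at 0.62 (adjusted p = 0.459) and scattered widely, from 6.34 to 9.12 in knockout VILI. With the mean of all 4 probe sets the averaged change of Nrp1 was -0.26 and was not called (adjusted p = 0.253).

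Flt1 and Flt4 were not called with all arrays in the fit, and Flt1 passed averaged over genotypes without knockout SB replicate 2 (-0.38, adjusted p = 0.0369). Flt1 read 10.52, 10.49 and 10.13 in knockout VILI lungs, against 10.60, 10.28 and 10.96 in knockout SB lungs. Wild type mice had 10.51, 10.45 and 10.70 after VILI, against 10.76, 10.97 and 11.05 under SB. The wild type groups did not overlap and the knockout groups did. The changes of Flt1 were -0.23 (SE 0.17, adjusted p = 0.461) in knockout and -0.37 (SE 0.17, adjusted p = 0.235) in wild type. Its 3 other probe sets were on the other side of 0, at 0.08 (adjusted p = 0.834), 0.34 (adjusted p = 0.32) and 0.28 (adjusted p = 0.552) averaged over genotypes, so that the mean of the 4 was at 0.10 (adjusted p = 0.685) and the direction of Flt1 depends on the probe set. Flt4 read 9.88, 10.06 and 9.49 in knockout VILI, against 9.52, 10.05 and 10.16 in knockout SB, and 9.70, 9.75 and 9.71 in wild type VILI, against 10.24, 10.42 and 9.56 in wild type SB. The groups overlapped in both genotypes, and the changes were -0.10 (SE 0.23, adjusted p = 0.837) in knockout and -0.35 (SE 0.23, adjusted p = 0.409) in wild type. The 95% intervals of the averaged change were -0.56 to -0.04 for Flt1, -0.587 to 0.13 for Flt4 and -0.56 to 0.10 for Tie1. Each includes the averaged changes of Angpt1, Angpt2, Nrp1 and Vegfa. None includes that of Kdr (-0.62) or Tek (-0.67), and only the Flt4 interval includes that of Vegfc (-0.586).

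Among the VEGF ligands, Vegfc was the second gene called in knockout lungs. Vegfc read 9.49, 9.43 and 9.50 in knockout VILI lungs, against 10.43, 10.34 and 10.31 in knockout SB lungs. In wild type lungs Vegfc read 10.06, 9.89 and 9.49 after VILI, against 9.88, 10.30 and 10.11 under SB. The knockout groups did not overlap, and the wild type groups did. Knockout VILI averaged 9.47 ± 0.04 and knockout SB 10.36 ± 0.06 (SD, n = 3 each), a change of -0.89 (SE 0.15, adjusted p = 0.0121) or 1.85-fold lower. In wild type the change was -0.28 (SE 0.15, adjusted p = 0.295), and averaged it was -0.59 (SE 0.10, adjusted p = 0.00479). The 2 other Vegfc probe sets pointed the same way. In knockout 1440739_at was at -1.08 (adjusted p = 0.0305) and 1419417_at at -0.68 (adjusted p = 0.108). Averaged they were at -0.72 (adjusted p = 0.0131) and -0.46 (adjusted p = 0.0573), so 1419417_at was not called in either comparison. The probe set that stands for the gene, 1439766_x_at, has no accession, whereas 1419417_at is annotated to the RefSeq transcript. Affymetrix gives the suffix of 1439766_x_at to sets with probes that may also bind other sequences. The knockout call was lost without both arrays that stood apart (-0.93, adjusted p = 0.0563), without knockout VILI replicate 2 (-0.86, adjusted p = 0.0567) and with only the knockout arrays in the fit (adjusted p = 0.0519), at nearly the same size each time.

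The RefSeq promoter window of Vegfc is shown as the other gene called in knockout, at chr8:54077282-54077581 on the forward strand of GRCm38.p6, with the same motifs in capitals.
Vegfc: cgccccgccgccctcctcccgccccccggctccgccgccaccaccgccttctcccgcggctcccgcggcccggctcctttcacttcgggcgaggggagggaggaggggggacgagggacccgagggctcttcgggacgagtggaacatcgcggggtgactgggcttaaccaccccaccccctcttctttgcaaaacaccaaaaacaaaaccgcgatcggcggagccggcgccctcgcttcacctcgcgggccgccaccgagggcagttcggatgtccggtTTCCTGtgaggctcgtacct
It held 1 ETS match, TTCCTG, which begins 31 bases into the transcript, and 70.3% of its bases were G or C, against 52.0% in the Tek window and a median of 52.7% over all windows.

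Vegfa, the main permeability factor of the family, fell in the average over genotypes. Vegfa read 12.17, 12.01 and 11.83 in knockout VILI lungs, against 12.38, 12.33 and 12.28 in knockout SB lungs. In wild type lungs Vegfa read 12.19, 12.23 and 12.11 after VILI, against 12.41, 12.57 and 12.54 under SB. All VILI arrays lay below the SB arrays of their genotype. The change was -0.33 (SE 0.09, adjusted p = 0.0689) in knockout, -0.33 (SE 0.09, adjusted p = 0.0807) in wild type and -0.33 (SE 0.07, adjusted p = 0.00777) averaged, 1.26-fold lower. The second Vegfa probe set, 1451959_a_at, was at -0.28 (adjusted p = 0.488) averaged, with -0.66 in knockout and 0.10 in wild type, and the mean of both gave -0.31 (adjusted p = 0.186). Quantile normalization moved Vegfa past the threshold in both genotypes (-0.38, adjusted p = 0.0294 in knockout, and -0.38, adjusted p = 0.043 in wild type).

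**Figure D2:**
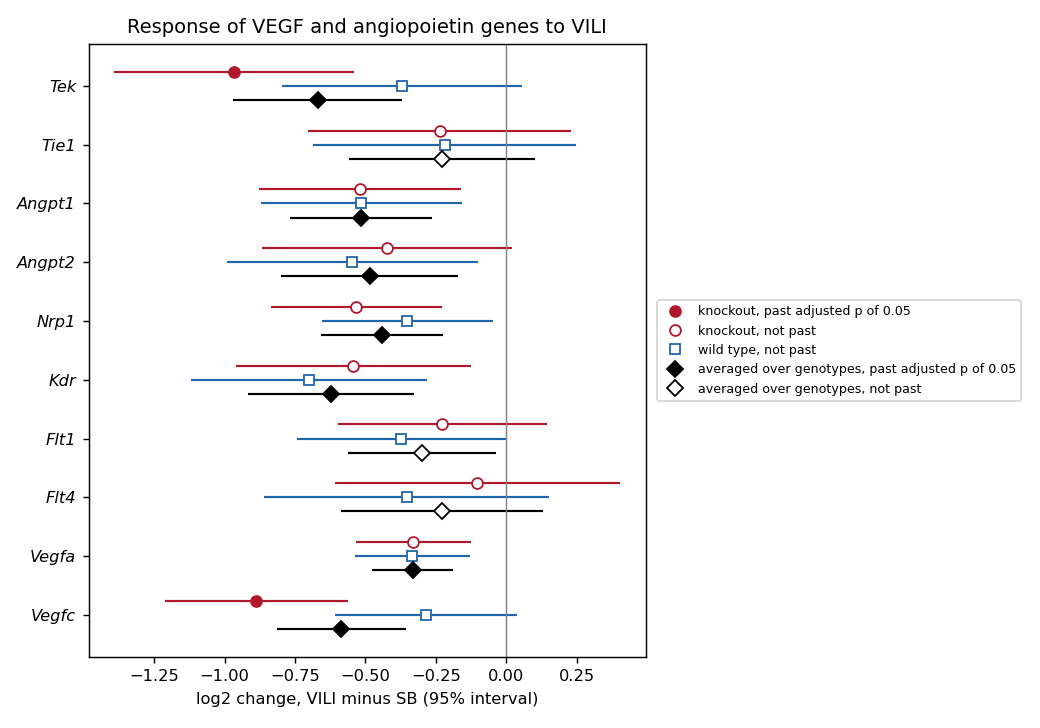
Log2 change of each of the 10 genes, VILI minus SB, in knockout (circles), in wild type (squares) and averaged over genotypes (diamonds), with 95% intervals of the fitted contrast. Filled symbols passed the adjusted p of 0.05. All 30 points lie left of 0, 2 are filled in knockout, 0 in wild type and 7 in the average.

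By genotype, 2 of the 10 genes fell in knockout lungs, Tek and Vegfc, and 0 of 10 passed in wild type lungs. Over all genes, 1.7% were called lower in knockout and 1.28% in wild type. At an unadjusted p under 0.05, 6 of the 10 genes passed in each genotype, against 22.2% of all genes in knockout and 21.2% in wild type. The VILI arrays lay entirely below the SB arrays for 5 of 10 genes in knockout, where 10.6% of all genes did so, and for 8 of 10 in wild type, where 20% did so. Tek, Angpt1, Nrp1 and Vegfa, 4 of the 10, did so in both genotypes, as 6.19% of all genes did. Quantile normalization lowered the share of called genes that were higher to 51.2% in knockout, against 61.9% as deposited, and to 40.5% in wild type, against 51.4%. Medians of the changes over the 10 genes were -0.47 in knockout, against 0.00 over all genes, and -0.36 in wild type, against -0.05. With quantile normalization 4 genes passed in knockout and 1 in wild type, and without both arrays that stood apart 0 passed in knockout and 1, Vegfa, in wild type. Single knockout arrays moved the knockout count to 0 without VILI replicate 2, to 1 without SB replicate 1 and to 4 without VILI replicate 1. Without wild type SB replicate 1, an array outside that comparison, Nrp1 was called in knockout as well (-0.53, adjusted p = 0.0436).

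Each of the 21 kept probe sets was also tested separately. Averaged over genotypes 10 probe sets fell and 0 rose after adjustment over all 23082 kept probe sets. They belonged to the same 7 genes that were called at the gene level. The probe sets that stand for those 7 genes are among the 10, so this match is not a separate check. The others called were 1440739_at of Vegfc and 1448944_at and 1418084_at of Nrp1. Below 0 were 17 of the 21. The 4 above 0 were the 3 dimmer Flt1 probe sets and the fourth Nrp1 probe set.

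**Figure D3:**
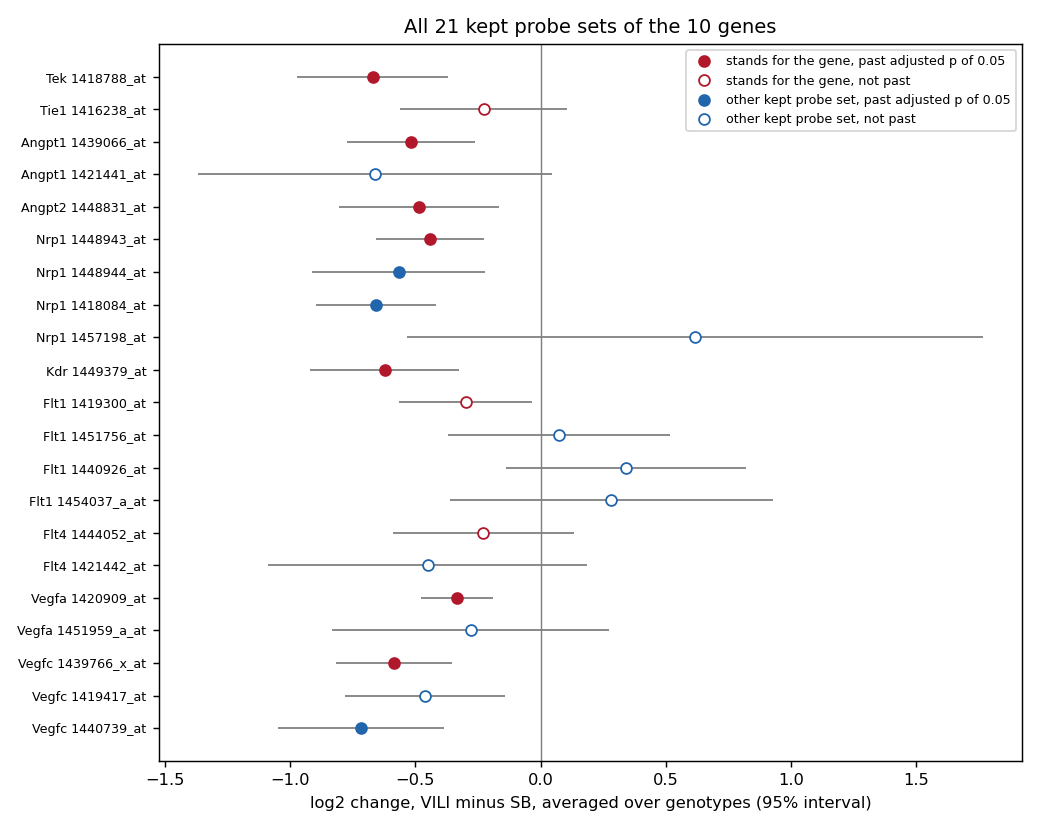
Log2 change on VILI averaged over genotypes for each of the 21 kept probe sets, with 95% intervals, grouped by gene. Red marks the probe set that stands for its gene and blue the others, and filled points passed the adjusted p of 0.05. The called points lie between -0.33 and -0.72, and the 3 blue Flt1 points and 1 blue Nrp1 point lie right of 0 with intervals that include 0.

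The second question was whether loss of Gadd45a altered these genes. Tests of the interaction, the VILI change of knockout minus that of wild type, called 0 of 10 genes with limma (1 at an unadjusted p under 0.05), and 0% of all genes, 288 of which (2.62%) had an unadjusted p under 0.05. Vegfc had that unadjusted p, at -0.60 (SE 0.21, adjusted p = 1) and a 95% interval of -1.06 to -0.14. Tek was at -0.60 (SE 0.27, adjusted p = 1), with a 95% interval of -1.20 to 0.00. For Vegfa and Angpt1 the responses of the genotypes differed by 0.002 and -0.0046, with intervals of -0.29 to 0.29 and -0.51 to 0.50. Both values rest on the brightest probe set, and the mean of the kept probe sets gave -0.38 for Vegfa and -0.55 for Angpt1 (adjusted p = 1 for each). A call of Tek and Vegfc in knockout and none in wild type is not shown to be a difference between genotypes.

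Direct comparisons of knockout with wild type also called 0 of 10 genes in each treatment. In VILI lungs, where 0.1% of all genes were called, 2 of the 10 and 6.88% of all genes had an unadjusted p under 0.05, the 2 being Tek at -0.58 (SE 0.19, adjusted p = 0.544) and Vegfc at -0.34 (SE 0.15, adjusted p = 0.721). Every knockout VILI array of Tek lay below every wild type VILI array, as in 8.13% of all genes, and no other of the 10 genes showed this. The separation was narrow, with the highest knockout VILI array at 12.353 and the lowest wild type VILI array at 12.356. Without knockout VILI replicate 1 this difference of Tek passed (-0.83, adjusted p = 0.0410), and without both arrays that stood apart it was -0.35 (adjusted p = 1). In SB lungs, where 0.109% of all genes were called, 0 of 10 and 10.1% of all genes had an unadjusted p under 0.05, and the largest difference was -0.38 (SE 0.19, adjusted p = 0.522) for Kdr. Vegfc was higher on every knockout SB array than on every wild type SB array, at 0.26 (SE 0.15, adjusted p = 0.565), and Vegfa lower, at -0.18 (SE 0.09, adjusted p = 0.55). Between knockout and wild type SB lungs, 3.76% of all genes were higher without overlap and 11.5% lower.

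Ordered by group means, knockout VILI was lowest for 9 of the 10 genes and wild type VILI for Flt4. Wild type SB was highest for 8 genes and knockout SB for Tek and Vegfc. Group means of a gene spanned 0.35 for Flt4 to 0.97 for Tek. The share of all genes with such an order was not computed. Knockout minus wild type lay below 0 for 62.2% of all genes in SB lungs and 52.3% in VILI lungs. VILI minus SB lay below 0 for 49.4% in knockout and 57.8% in wild type. The genotypes were not called different in either treatment for any of the 10 genes, so the order of knockout and wild type within a treatment is not resolved.

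Among 7 measured relatives of these genes, 1 fell and 0 rose averaged over genotypes, with a median of -0.31. The count was the same without both arrays that stood apart. Over all genes, 9.39% were called lower with all arrays and 7.85% without both arrays that stood apart. Vegfb, a ligand of VEGFR1, read 6.48, 6.25 and 6.25 in knockout VILI, against 6.95, 6.76 and 8.11 in knockout SB, and 6.65, 6.22 and 6.77 in wild type VILI, against 6.94, 7.38 and 7.39 in wild type SB. The VILI arrays lay below the SB arrays of their genotype, and the highest array, knockout SB replicate 3, is a library that stood apart in B cell markers. The averaged change was -0.82 (SE 0.22, adjusted p = 0.0252), and -0.59 (adjusted p = 0.0301) without both such arrays. Vegfd, the other ligand of VEGFR3, was at -0.44 (adjusted p = 0.129) and the co-receptor Nrp2 at -0.31 (adjusted p = 0.0825).

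Of 17 measured transcription factors and other regulators of these genes, 1 rose and 6 fell averaged over genotypes, with a median of -0.15, where 8.42% of all genes were called higher and 9.39% lower. Without both arrays that stood apart 1 rose and 5 fell, Sox18 being lost (-0.84, adjusted p = 0.0872). In that fit 6.98% of all genes were called higher and 7.85% lower. Klf2, a shear-stress factor of endothelium, read 10.61, 10.83 and 11.08 in knockout VILI, against 11.91, 12.30 and 12.73 in knockout SB, and 10.30, 10.50 and 10.77 in wild type VILI, against 11.58, 12.27 and 12.20 in wild type SB. It fell, at -1.47 (adjusted p = 0.0108) in knockout, -1.49 (adjusted p = 0.0132) in wild type and -1.48 (SE 0.16, adjusted p = 0.000486) averaged. Sox17 and Sox18, endothelial Sox factors, fell, at -1.16 (adjusted p = 5.09e-05) and -1.13 (adjusted p = 0.0253), Nr2f2, a venous and lymphatic factor, at -0.95 (adjusted p = 0.0337), and Gata2 at -0.80 (adjusted p = 0.00493). The hypoxia factor gene Hif1a rose, at 0.41 (SE 0.09, adjusted p = 0.0125), and its endothelial relative Epas1 fell, at -0.24 (SE 0.06, adjusted p = 0.0161). Foxo1, whose product drives Angpt2 transcription, was at 0.34 (adjusted p = 0.0875).

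Of 24 measured signalling parts downstream of the receptors, 2 rose and 2 fell averaged over genotypes, with a median of -0.12, which is near the shares over all genes (8.42% higher and 9.39% lower). The phosphatase gene Ptpn11 at 0.31 (adjusted p = 0.0152) and the kinase gene Pik3ca at 0.40 (adjusted p = 0.0138) rose, and phospholipase C gamma, Plcg1, at -0.32 (adjusted p = 0.016) and endothelial nitric oxide synthase, Nos3, at -0.63 (adjusted p = 0.0485) fell. The call of Nos3 was lost without both arrays that stood apart (-0.55, adjusted p = 0.133). Of 15 measured genes that VEGF is known to induce in cultured endothelium, 4 rose and 1 fell, with a median of 0.05, against 8.42% of all genes called higher. Without both arrays that stood apart 3 rose, Egr3, Rcan1 and Dll4, and 1 fell, Plvap. In that fit 6.98% of all genes were called higher and 7.85% lower. Adamts1 (adjusted p = 0.110), Dusp5 (adjusted p = 0.0684) and Nrarp (adjusted p = 0.0557) did not pass there. Rcan1, an inhibitor of calcineurin, read 10.15, 10.74 and 9.81 in knockout VILI, against 8.60, 8.94 and 7.92 in knockout SB, and 10.62, 10.44 and 10.99 in wild type VILI, against 8.77, 9.51 and 8.64 in wild type SB, and rose, at 1.74 (adjusted p = 0.0158) in knockout and 1.71 (adjusted p = 0.0238) in wild type. Egr3, an immediate early factor, rose, at 2.54 (adjusted p = 0.0114) averaged, Adamts1 at 0.70 (adjusted p = 0.0456) and Dusp5 at 0.70 (adjusted p = 0.0358), while Nrarp, a Notch feedback gene, fell, at -0.46 (adjusted p = 0.018). Several of these genes also respond to other stimuli, and the cells in which they rose are not known from tissue RNA. Of 18 measured junction and leak genes, 1 rose and 2 fell, with a median of -0.10, near the shares over all genes. Without both arrays that stood apart 2 rose, Marveld2 and Vav3, and 0 fell, against 6.98% and 7.85% of all genes. Marveld2, a tricellular junction gene, rose, at 0.58 (adjusted p = 0.0176), the catenin gene Ctnnd1 fell, at -0.39 (adjusted p = 0.0391) and Afdn at -0.31 (adjusted p = 0.0444), and Cdh5, the endothelial cadherin gene, was at -0.25 (adjusted p = 0.293).

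**Figure D4:**
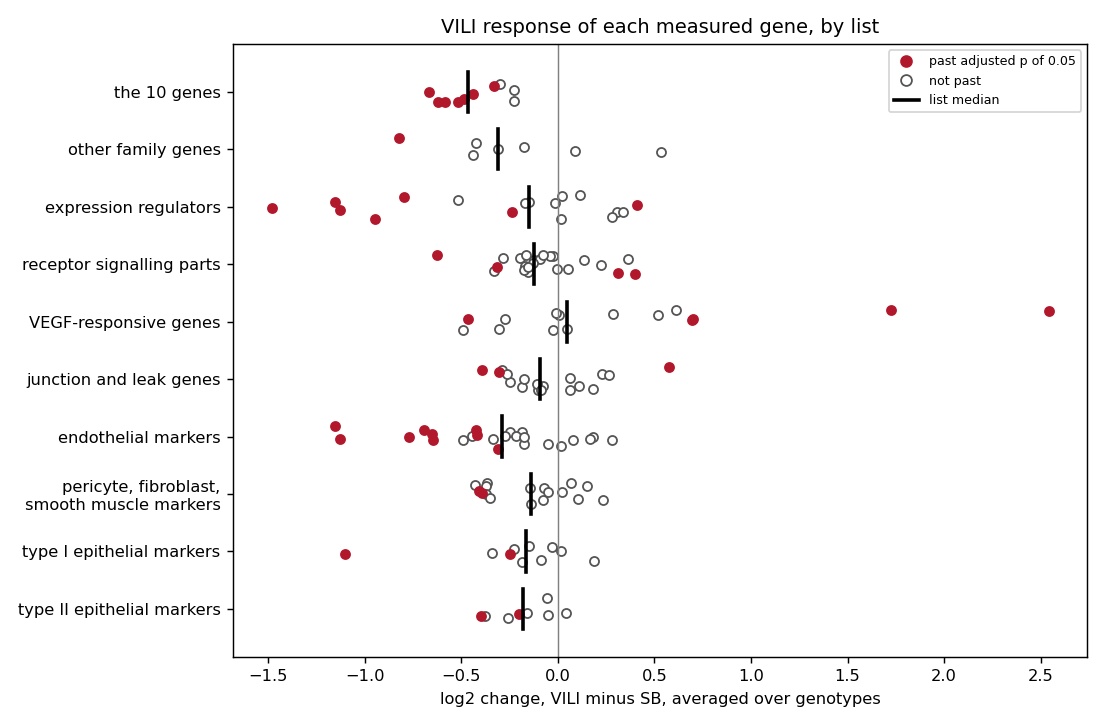
Log2 change on VILI averaged over genotypes for each measured gene of the pathway and marker lists, a point per gene and a row per list. Red points passed the adjusted p of 0.05, and the vertical bars are list medians. The 10 genes have a median of -0.46, the endothelial markers -0.29 and the VEGF-responsive genes 0.05, where Egr3 and Rcan1 lie farthest right.

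Markers of lung cell types were counted in the same way. Over all genes, 9.39% were called lower and 8.42% higher averaged over genotypes. Without both arrays that stood apart these shares were 7.85% and 6.98%. Of 24 measured endothelial markers that are not among the 10 genes, 9 fell and 0 rose averaged over genotypes, with a median of -0.29, and 10 fell without both arrays that stood apart. Among the 9 were Sox17, Sox18, Eng at -0.77 (adjusted p = 0.00172), Ramp2 at -0.69 (adjusted p = 0.0157) and Calcrl at -0.65 (adjusted p = 0.00473). Their mean level was 10.86 to 11.30 in knockout VILI, against 11.51 to 11.56 in knockout SB, and 11.14 to 11.30 in wild type VILI, against 11.45 to 11.55 in wild type SB. Knockout VILI replicate 3 was the lowest of the 12 arrays for Tek, Vegfa, Flt1, Flt4, Tie1 and Angpt1. For Vegfc, Kdr, Nrp1 and Angpt2 the lowest array was knockout VILI replicate 2. Replicate 3, which stood apart in B cell markers, was also the lowest of the 12 for the endothelial markers. The same held for the type I (12.04) and type II (12.75) epithelial markers. Of 12 measured neutrophil markers 10 rose and 0 fell (median 2.86), with mean levels of 9.16 to 10.55 in knockout VILI, against 6.99 to 7.44 in knockout SB, and 8.83 to 9.68 in wild type VILI, against 6.45 to 6.90 in wild type SB. Of 17 measured pericyte, fibroblast and smooth muscle markers, 2 fell and 0 rose (median -0.14), which is near the shares over all genes. Of 10 type I epithelial markers 2 fell and 0 rose (median -0.17), and of 8 type II markers 2 fell and 0 rose (median -0.18). Of 6 club and ciliated cell markers 6 fell and 0 rose (median -0.39). Of 4 measured genes of the lymphatic list, Lyve1, Mmrn1, Reln and Thy1, 1 rose, Lyve1 at 0.36 (adjusted p = 0.0371), and 0 fell. Prox1 and Ccl21a of that list were not among the genes tested. Thy1 was highest on both arrays that stood apart, at 8.03 in knockout VILI and 8.21 in knockout SB. Macrophage and monocyte markers gave 2 rises and 0 falls among 9. Without both arrays that stood apart, 1 of the pericyte, fibroblast and smooth muscle markers fell and 1 macrophage and monocyte marker rose, and the counts of the epithelial, lymphatic and neutrophil markers were the same. Pecam1, a marker of all endothelium, fell, at -0.31 (SE 0.07, adjusted p = 0.0145). The part of these marker shifts in the changes of the 10 genes was not tested.

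Genes outside the 10 with the most similar profile were sought for each of the 7 called genes, by the root mean square difference of log2 values, each centred on its gene's mean, over the 12 arrays. For Tek, whose own values deviated from their mean by 0.45, they were Stmn2, Rab3d and Aard, at differences of 0.113 to 0.148. For Vegfc (own deviation 0.363) they were Uevld, Gtf2i and Rusf1, at 0.145 to 0.157, and for Kdr (0.407) Rsph3a, Trp53bp2 and Homer3, at 0.114 to 0.124. Nrp1 (0.286) was most like Mcee, Anxa6 and Mecom, at 0.0686 to 0.0893, and Vegfa (0.206) most like Zbtb4, Cat and Cyb5r3, at 0.057 to 0.0653. Angpt1 (0.318) was nearest to Slc25a36, Idh2 and Castor1, at 0.112 to 0.121, and Angpt2 (0.329) to Tmem35b, Slc16a11 and Nudt14, at 0.0975 to 0.113. These are descriptions of 12 arrays that share the VILI contrast.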

How the data were processed

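Lung RNA was hybridised to 12 Affymetrix mouse arrays, each taken here as 1 mouse. The deposited values are log2 expression values per probe set, as the authors processed them. MAS5 and GCRMA are named in the submitters' processing notes without version or role, and the original scanner intensities were not used here. Array medians over all probe sets were 4.37 to 4.59, and the number of arrays, 3 per group, limits the precision. Control probe sets (64) were left out, probe sets above the array median on at least 3 of 12 arrays were kept (23082 of 45037), and the probe set with the highest mean stood for its gene (10996 genes). Symbols come from the platform annotation, which gave 34945 probe sets a single symbol, 932 several and 9160 none.

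Group means were fitted with limma 3.58.1 in R 4.3.3 (lmFit, eBayes with a mean-variance trend, 8 residual degrees of freedom), over 6 contrasts, with Benjamini-Hochberg adjustment over genes, two-sided. Sequences are RefSeq windows of GRCm38.p6. The 10 genes, the gene lists and the tests were chosen with earlier results of these data known, so the lists give no independent support. Named genes are the 10, up to 5 called genes per pathway list and comparison by size of change, defining and called cell markers, and the 3 nearest profiles of each called gene. Vegfd, Nrp2, Hif1a, Epas1 and Foxo1 were added for their known roles after their values were seen. Alternatives were other filters, probe set summaries, normalizations, a replicate block, the arrays of a comparison alone, and each array or both arrays with high B cell markers left out.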

Additional observations from a re-analysis of the deposited data

How the results depend on the processing

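The averaged fall of Vegfc, Kdr and Tek passed in all 19 alternatives, that of Vegfa, Nrp1 and Angpt1 in 18, and that of Angpt2 in 9. Tests of each probe set on its own are not among the 19, and there 1419417_at of Vegfc was not called (adjusted p = 0.0573). The mean of the kept probe sets lowered the averaged count from 7 to 4 of the 10 genes. Called counts without each array in turn were 6 to 7 averaged (Flt1 passed without knockout SB replicate 2), 0 to 4 in knockout, 0 in wild type and 0 to 1 for knockout against wild type in VILI, the 1 being Tek without knockout VILI replicate 1. In knockout (2 called) the count was 4 with quantile normalization, 0 with only the 6 knockout arrays and 0 without both arrays high in B cell markers. In wild type (0 called) it was 1 with quantile normalization and 1 without those arrays. The labels do not say that a replicate number marks a shared litter, batch or day, and pairing by number was not settled by the data. Of 18 same-numbered pairs across groups, 10 correlated above 0.1 in their deviations from the group means (range -0.16 to 0.53, other pairs -0.45 to 0.25), and 8 of 12 arrays correlated best with an array of their own number. A replicate block left 7, 2 and 0 of the 10 genes called averaged, in knockout and in wild type, with 2307, 667 and 442 genes called in all, against 1958, 491 and 290 without it.

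Directions turned for changes that were not called. With the mean of probe sets, Flt1 was at 0.11 in wild type, 0.094 in knockout and 0.10 averaged on VILI, -0.011 in the interaction, 0.083 for knockout against wild type in SB and 0.072 in VILI, Vegfa at -0.38 in the interaction and 0.045 in SB, Flt4 at 0.030 and Angpt1 at 0.29 in SB. The Vegfa interaction was -0.0093 with quantile normalization and -0.016 with centred arrays, which also put Tek in SB at -0.035. Without both arrays high in B cell markers, the VILI change in knockout was 0.073 for Flt1, 0.18 for Flt4 and 0.11 for Tie1, and the interaction 0.32 for Tie1 and -0.014 for Angpt2. Leaving out each array gave interactions of -0.083 to 0.090 for Vegfa, -0.0053 to 0.31 for Kdr, -0.021 to 0.32 for Flt1, -0.23 to 0.21 for Tie1, -0.15 to 0.13 for Angpt1 and -0.081 to 0.29 for Angpt2. It gave -0.30 to 0.059 for Flt4 on VILI in knockout, -0.037 to 0.25 for Flt4 in VILI, and -0.42 to 0.034 for Flt4 and -0.098 to 0.088 for Tek in SB. The cause of these turns was not tested.

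Over all genes, counts moved by over 1.5 times. Without the filter 112 genes were called in wild type (290) and 306 in knockout (491). With every probe set on its own the counts are of probe sets among 23082, not of genes among 10996, so they are not like counts. They were 3113 averaged (1958 genes), 23 for knockout in SB (12 genes) and 23 in VILI (11 genes). With only the arrays compared 475 genes were called in wild type and 11 in knockout, and without both arrays high in B cell markers 653 and 110. Leaving out each array gave 19 to 487 in wild type, 69 to 713 in knockout, 1128 to 2084 averaged, 9 to 18 in SB and 8 to 42 in VILI.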
